A study of Parasteatoda tepidariorum with 75 samples.

Results

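The genes described here are gene models that were nearly silent at early stage 3 and clearly expressed at late stage 5 in untreated embryos of the house spider Parasteatoda tepidariorum. They were chosen by measured values, namely a mean below 1 CPM (the count of a model per 1000000 counts of its library) at early stage 3 and of at least 20 CPM at late stage 5 in the untreated libraries of gfp females 1 to 3. Models whose deposited description names a homeobox, forkhead, T-box, SOX, GATA, basic helix-loop-helix, Wnt, frizzled, cadherin or collagen protein, and Pt-fgf8, were to be left out. Of 27990 gene models, 15868 lay below the stage 3 limit and 6109 at or above the stage 5 limit. Both limits were met by 45 models, 0 of them carried such a description, and these 45 are the members.

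Values at the limits show how sharp the choice was. Just inside the stage 3 limit were aug3.g2323, described as a BMP-binding endothelial regulator-like protein, at 0.98 CPM and aug3.g15580, an ectonucleotide pyrophosphatase/phosphodiesterase 1-like enzyme, at 0.971 CPM. Just outside it were aug3.g9570 at 1.01 CPM and aug3.g1853 at 1.03 CPM. At the stage 5 limit, the riboflavin transporter-like aug3.g5826 at 20.2 CPM and aug3.g14419, a phosphomethylethanolamine N-methyltransferase, at 20.7 CPM were inside, and aug3.g20540 at 19.9 CPM and aug3.g17951 at 19.2 CPM were outside.

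An animal embryo first runs on RNA that the mother laid down in the egg, and its own genome takes over gene by gene as the cells divide. In this spider the blastoderm contracts between these stages into a germ disc, a sheet of epithelial cells on one side of the egg, with the cumulus beneath it, while yolk-side cells remain outside the disc. Hedgehog (Hh), a secreted ligand made at the rim of the disc, and Patched (Ptc), its receptor, which keeps the pathway off until the ligand binds, pattern the disc. Msx1 is a homeodomain transcription factor that the study followed as a segmentation gene downstream of Hh signaling. Whether genes that come on in this interval respond to loss of these factors is the question put here.

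Each library was poly(A) RNA of pooled sibling embryos of a single female, laid 13 to 24 days after the first injection of double-stranded RNA into the mother (parental RNA interference, pRNAi) or 1 to 3 days before it (untreated). Pt-hh females 1 and 2 gave 4 pRNAi and 2 untreated libraries, and Pt-ptc females 1 to 3 gave 6 pRNAi and 3 untreated libraries, at each of early stage 3 and late stage 5. Pt-msx1 females 1 to 3 gave 3 pRNAi and 3 untreated libraries at each of late stage 5 and early stage 6. The gfp females, injected with RNA of a jellyfish gene that the spider lacks, gave 6 pRNAi and 3 untreated libraries at early stage 3 and at late stage 5 (females 1 to 3), and 2 of each at late stage 5 and at early stage 6 (females 4 and 5). In every female the pRNAi eggs were laid after the untreated ones, so injection and egg order cannot be told apart other than through the gfp females. Since whole embryos were pooled, fewer cells of a type and less RNA per cell cannot be told apart either.

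In the 68 libraries the total was 5961730 to 16400327 counts, with a median of 9854679. Pt-hh itself was at 2.17 to 3.06 CPM in Pt-hh pRNAi libraries at late stage 5, against 33.7 and 60.3 CPM in untreated ones. Pt-ptc was at 467 to 613 CPM in Pt-ptc pRNAi libraries at late stage 5, against 411 to 544 CPM in untreated ones, and at 48.5 to 88.7 CPM against 82.2 to 177 CPM at early stage 3. At late stage 5 the counts thus did not show the knockdown of Pt-ptc. The study proposes that the knockdown likely raises Hh signaling, which in turn activates Pt-ptc transcription. Pt-msx1 was at 74.9 to 110 CPM in Pt-msx1 pRNAi libraries at late stage 5, against 79.1 to 134 CPM in untreated ones, so the counts did not show its knockdown. At early stage 6 it was at 125 and 95.6 CPM in pRNAi libraries of females 2 and 3, and at 200 CPM in the column described next. The untreated ones had 124 to 158 CPM. The study reports that double-stranded RNAs from separate regions of Pt-msx1 gave the same embryonic defects. The count column labelled Pt-msx1 pRNAi female 1 at early stage 6 held the same counts in every gene model as the one labelled gfp pRNAi female 5 at early stage 6. Its deviations from the group mean correlated at 0.49 with those of the untreated library of gfp female 5 and at -0.23 with those of Pt-msx1 female 1, over 7830 gene models, where the other females' own pairs gave 0.64 to 0.73. Main results of early stage 6 pRNAi are therefore given with and without that column. Those of other tools and settings, and the figures, include it.

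The members were a varied set with few known patterning genes, and most described ones were enzymes, carriers or transporters. Signaling and regulation had 5, led by aug3.g17723, described as the transcription factor HES-1-A, a basic helix-loop-helix repressor of the Hairy and enhancer of split family that acts downstream of Notch in vertebrates. Its description does not carry the family's words, so the rule kept it. The others of the group were the BMP-binding protein-like aug3.g2323, the BTB/POZ domain protein 9-like aug3.g25858, aug3.g15037, named as an E3 ubiquitin ligase, and aug3.g11669, a histone H1E-like linker histone.

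Extracellular and structural proteins numbered 4: aug3.g12569, like TGF-beta-induced protein ig-h3, an adhesion protein of the extracellular matrix; aug3.g2441, like a serine-rich adhesin; aug3.g16493, described as sericin 1-like in the deposited table but labelled a homeodomain protein by the study; and aug3.g23220, described as a keratin, on a model of only 373 bp. The rule goes by the deposited description, so aug3.g16493 stayed a member, and its place in this group is uncertain. The 4 transporters and channels were aug3.g27427 (sialin-like, the carrier that exports sialic acid from lysosomes in mammals), aug3.g7477 (an equilibrative nucleoside transporter), aug3.g5826 (riboflavin) and aug3.g21244 (a potassium channel of subfamily K).

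Metabolic enzymes and carriers made up 23 of the members. Amino acid and nitrogen metabolism had 9 models, among them aug3.g12367, 4-hydroxyphenylpyruvate dioxygenase (HPPD, the second enzyme of tyrosine breakdown), its relative aug3.g23731, the histidine ammonia-lyase-like aug3.g23736, the kynurenine formamidase-like aug3.g25447 of tryptophan breakdown, aug3.g12656 (cystathionine beta-synthase, which commits homocysteine to cysteine), aug3.g7832 (cysteine sulfinic acid decarboxylase, which leads to taurine) and aug3.g23993 (hydroxylysine kinase). Lipid carriers and lipid metabolism had 7, including aug3.g11867 (alpha-tocopherol transfer protein-like) and aug3.g13305 (SEC14-like protein 2), both of the family that moves lipids between membranes, aug3.g24515 (fatty acid-binding protein-like), aug3.g18714 (vitellogenin-like) and aug3.g27733 (acetoacetyl-CoA synthetase-like). Sugar and sialic acid metabolism had 3, namely aug3.g25109 (alpha-L-fucosidase), aug3.g25098 (N-acylneuraminate-9-phosphatase, which makes sialic acid) and aug3.g27194 (N-acetylneuraminate lyase, which breaks it down). Other enzymes had 4, with aug3.g3231 (dipeptidyl peptidase 1-like, a lysosomal protease), aug3.g17448 (a glutathione S-transferase), aug3.g15580 and the membrane-cutting GTPase-like aug3.g26987 (dynamin-1-like). The remaining 9 models had no description or an uncharacterized one.

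The 45 models lay on 43 scaffolds of the assembly Ptep_1.0, with at most 2 on any of them. There were 2 pairs that shared a locus identifier: aug3.g11342 and aug3.g7317, both described as the urease accessory protein UreG, on scaffolds 1298 and 24, and aug3.g2390 and aug3.g2391 on scaffold 385, at 86237 to 87554 and 90393 to 99964. Reads of one gene may be split over both models of a pair, which was not tested. Over the 44 libraries of late stage 5 and early stage 6, aug3.g11342 was 1.72 to 16.7 times aug3.g7317 in CPM, and aug3.g2390 was 0.312 to 1.88 times aug3.g2391.

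The rule used gfp females, so untreated Pt-hh and Pt-ptc females provide the same measure in libraries that did not choose the members. In these 5 females, 43 of the 45 members passed the test between late stage 5 and early stage 3, all 43 higher at late stage 5, with an adjusted p under 0.01 (edgeR quasi-likelihood test, Benjamini-Hochberg adjusted over 14244 models, female as block). Over all models tested, 27.9% were called higher. The median log2 fold change of the members was 6.86, beside -0.03 for all models. In 43 members every stage 5 library lay above every stage 3 library, as in 20.2% of all models tested. Nonetheless, the exact limits were met by only 28 of 45: the mean was below 1 CPM at early stage 3 for 34 members and at least 20 CPM at late stage 5 for 36.

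**Figure D1:**
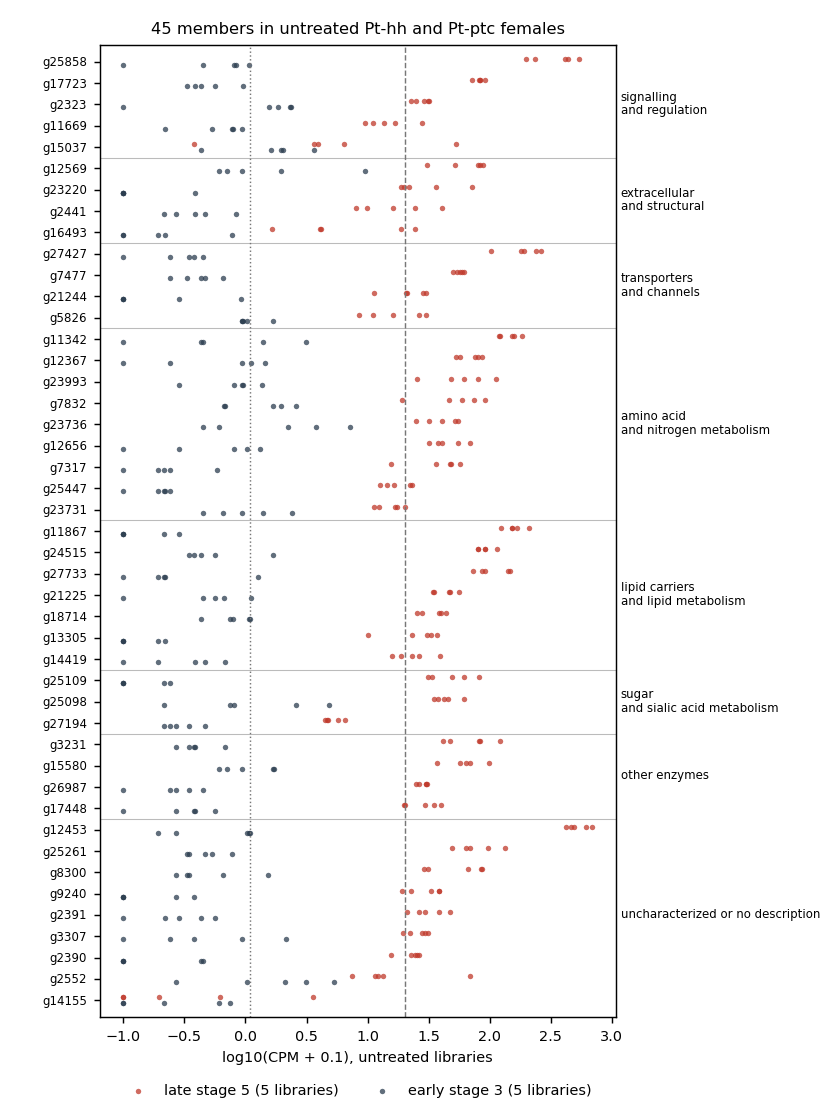
Untreated libraries of Pt-hh and Pt-ptc females, 5 at late stage 5 (red) and 5 at early stage 3 (dark), for each of the 45 members grouped by role; the horizontal axis is log10(CPM + 0.1), the dotted line 1 CPM and the dashed line 20 CPM. For 43 members all red points lie to the right of all dark ones, while those of aug3.g15037 and aug3.g14155 overlap.

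The steepest members were read out almost not at all at early stage 3. Of these, 4 had at most 3 counts in the 5 stage 3 libraries together, and their ratios are given from summed counts with exact 95% intervals that cover counting error only. For aug3.g11867 (alpha-tocopherol transfer protein-like), 7912 counts at late stage 5 stood against 3 at early stage 3, a ratio of 2218 (759 to 10756). The fucosidase aug3.g25109 gave 2325 against 2 counts, a ratio of 978 (270.3 to 8077). SEC14-like aug3.g13305 gave 1293 against 2 counts, a ratio of 544 (150.2 to 4494), and keratin-like aug3.g23220 gave 1752 against 2, a ratio of 737 (204 to 6087). Among the other 39 called members the ratio of mean CPM ran from 9.93 to 964, with a median of 106.

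The member read out most was aug3.g12453, an uncharacterized model on scaffold 1487 (196136 to 210470, plus strand), with 536 ± 113 CPM at late stage 5 against 0.632 ± 0.460 CPM at early stage 3 (SD, n = 5 females each). BTB domain-like aug3.g25858 reached 364 ± 142 CPM against 0.555 ± 0.382 CPM, and sialin-like aug3.g27427 reached 195 ± 62.6 CPM against 0.203 ± 0.135 CPM. HES-1-A aug3.g17723 varied little between females, with 71.6 to 91.5 CPM at late stage 5 in these 5 females against at most 0.851 CPM at early stage 3, a log2 fold change of 7.63 (SE 0.30, adjusted p 9.21e-10).

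Per unit of length, in the RPKM values deposited by the authors, the order changed. The small fatty acid-binding protein-like aug3.g24515 came first with 234 ± 50.3 RPKM at late stage 5, followed by aug3.g12453 with 201 ± 58.7 RPKM, aug3.g25858 with 142 ± 66.4 RPKM and the UreG model aug3.g11342 with 120 ± 22.2 RPKM (SD, n = 5). The intervals of 1 SD of aug3.g24515 and aug3.g12453 overlap, as do those of aug3.g25858 and aug3.g11342. These 4 members ranked 263, 313, 438 and 525 among all models.

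The remaining 2 members did not pass in the other females, and both differed widely between mothers. The model aug3.g14155, with no description, on scaffold 1809 (102756 to 181932, plus strand), was at 20.5 and 43.2 CPM in untreated late stage 5 embryos of gfp females 1 and 2, which entered the rule, and at 0 in gfp female 3. In the untreated late stage 5 libraries of the other 10 females it was at 0 to 3.45 CPM. The pRNAi libraries of the same mothers repeated this, with 10.2 to 17.7 CPM in the 3 of gfp female 1, 24.6 and 42.6 CPM in those of gfp female 2, and 0 in that of gfp female 3.

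The E3 ligase-like model aug3.g15037, on scaffold 2022 (294679 to 318734, minus strand), gave a similar split. It was at 45.2, 47.6 and 52.9 CPM in untreated late stage 5 libraries of gfp females 1 and 2 and Pt-hh female 2, at 3.40 to 10.7 CPM in 6 females, and below 1 CPM in the other 4. Pt-hh females 1 and 2 thus stood far apart in this model, with 0.281 and 52.9 CPM before any injection. Across the 13 untreated females the coefficient of variation at late stage 5 was 237% for aug3.g14155, 146% for aug3.g15037, 107% for aug3.g16493 and 90.2% for the lyase aug3.g27194, and under 50% for 34 of the 45 members.

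**Figure D2:**
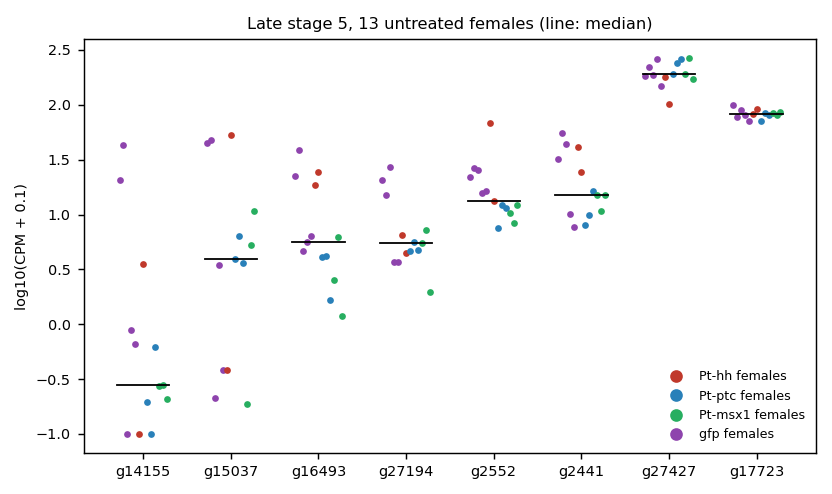
Level at late stage 5 in each of 13 untreated females, as log10(CPM + 0.1), for the 6 members that varied most between females and, for comparison, aug3.g27427 and aug3.g17723; the line is the median. Both models at the left spread over more than 2 units, while aug3.g17723 spreads over 71.6 to 100.5 CPM.

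After Pt-hh pRNAi nearly all members were still read out: 43 to 45 of them were at or above 1 CPM in each of the 6 late stage 5 libraries of these females. At the rule's limit of 20 CPM fewer were. Pt-hh female 1 had 32 and 29 members at or above it after pRNAi against 37 untreated, and female 2 had 27 and 28 against 35. Fewer members also reached it after gfp pRNAi, with 28 against 34 in gfp female 4 and 30 against 32 in gfp female 5. The sum over the members was 2139 to 2621 CPM in the 4 Pt-hh pRNAi libraries, against 2545 and 2631 CPM in the untreated ones. After gfp pRNAi it was 2510 against 3198 CPM in gfp female 4 and 2734.5 against 2807 CPM in gfp female 5. Levels nonetheless moved. At late stage 5, 3 members passed at an adjusted p under 0.01, all lower after Pt-hh pRNAi, where 3.55% of 12240 models tested were called. With a limit of 0.05 the number was 16, of which 5 were higher and 11 lower, beside 6.54% of all models. A log2 fold change below 0 was found in 32 of the 45 members, with a median of -0.32 beside 0.00 for all models. As a difference from the response of gfp females 4 and 5, the median was -0.10, with 18 of 45 members above 0.

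Among the 3 members called, the largest fall was that of SEC14-like aug3.g13305, a lipid carrier, on scaffold 1625 (279384 to 305014, minus strand). It was at 12.1 and 7.59 CPM in the pRNAi libraries of Pt-hh female 1 against 22.9 CPM untreated, and at 5.98 and 6.45 CPM in those of female 2 against 32.9 CPM untreated. All 4 pRNAi libraries lay below both untreated ones, and the log2 fold change was -1.80 (SE 0.22, adjusted p 0.000335). Set against the response of gfp females 4 and 5 at the same stage, whose libraries did not enter the rule, the difference was -1.34 (SE 0.36, adjusted p 0.0914). In that comparison, chosen after the data were seen, edgeR's quasi-likelihood test called 0 of 45 members, beside 0.544% of 12862 models, and 14 had an unadjusted p under 0.05, beside 14.3% of all models. The same gene was, however, also low in some other pRNAi libraries: at 4.92, 9.05 and 8.50 CPM after Pt-msx1 pRNAi against 20.4, 14.4 and 19.9 CPM untreated, and at 9.05 CPM in gfp female 4 against 18.9 CPM. These last values did not pass the test.

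ENPP1-like aug3.g15580, which cleaves nucleotides outside the cell in mammals, was at 20.4 to 28.6 CPM in the 4 Pt-hh pRNAi libraries, against 37.1 and 57.1 CPM in untreated ones, again without overlap. Its log2 fold change was -0.85 (SE 0.13, adjusted p 0.00123). Against the response of gfp females 4 and 5 the difference was -0.39 (SE 0.23, adjusted p 0.478). Over 12 alternatives its log2 fold change lay between -0.92 and -0.39, and the call was lost in 6.

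The linker histone-like aug3.g11669 was at 7.46, 7.11, 2.80 and 3.56 CPM after Pt-hh pRNAi, against 13.6 and 9.43 CPM untreated, with a log2 fold change of -1.18 (SE 0.21, adjusted p 0.0041). It also fell after Pt-ptc pRNAi, to 3.15 to 11.8 CPM against 11.1 to 27.9 CPM untreated, by 1.18 on the log2 scale (SE 0.21, adjusted p 0.0076). The difference from the response of gfp females 4 and 5 was -0.72 for Pt-hh (SE 0.43, adjusted p 0.482) and -0.71 for Pt-ptc (SE 0.43, adjusted p 0.729). Over 12 alternatives the log2 fold change for Pt-hh lay between -1.45 and -0.30, and the call was lost in 6. For Pt-ptc it lay between -1.47 and -0.31 over 13 alternatives, and the call was lost in 8. Without Pt-ptc female 3 the adjusted p for Pt-ptc was 0.122.

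On the higher side, no member passed at 0.01 after Pt-hh pRNAi, and 5 passed at 0.05. The largest change was that of TGFBI-like aug3.g12569, with 116 and 123 CPM in Pt-hh pRNAi libraries of female 1 against 80.5 CPM untreated, and 135 and 114 CPM in those of female 2 against 30.7 CPM untreated (log2 fold change 1.23, SE 0.28, adjusted p 0.0181). HPPD aug3.g12367, on scaffold 1477 (52876 to 69738, plus strand), was at 123 and 111 CPM in female 1 against 86.0 CPM, and at 129 and 163 CPM in female 2 against 53.3 CPM (0.94, SE 0.22, adjusted p 0.0193). Dynamin-like aug3.g26987 was at 37.2 and 50.3 CPM against 29.8 CPM, and at 70.5 and 76 CPM against 26.2 CPM (1.04, SE 0.23, adjusted p 0.0163). In all 3 genes every pRNAi library lay above both untreated ones, and female 2 moved more than female 1. Against the response of gfp females 4 and 5 the differences were 1.73 for aug3.g12569 (SE 0.40, adjusted p 0.0463), 0.93 for HPPD (SE 0.32, adjusted p 0.188) and 0.72 for aug3.g26987 (SE 0.33, adjusted p 0.34).

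Leaving out a Pt-hh female leaves 1 untreated library against 2 pRNAi egg sacs of the same mother, and the lone library is then assumed to vary like the others. Only effect sizes are therefore given for each of these fits, which also entered the numbers of alternatives in which a call was lost. With female 1 left out, these 3 genes had log2 fold changes of 2.13, 1.56 and 1.59. With female 2 left out, their values were 0.52, 0.39 and 0.51. By role, the 9 uncharacterized members had a median of -0.45, with 8 of them below 0. The 9 amino acid enzymes had a median of -0.31, with 7 below 0 and HPPD at the upper end. Medians were alike for lipid carriers (-0.37), transporters (-0.36) and signaling (-0.32), beside -0.32 for all members. Sugar enzymes had -0.21, while other enzymes (0.13) and extracellular proteins (0.48) lay above 0.

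**Figure D3:**
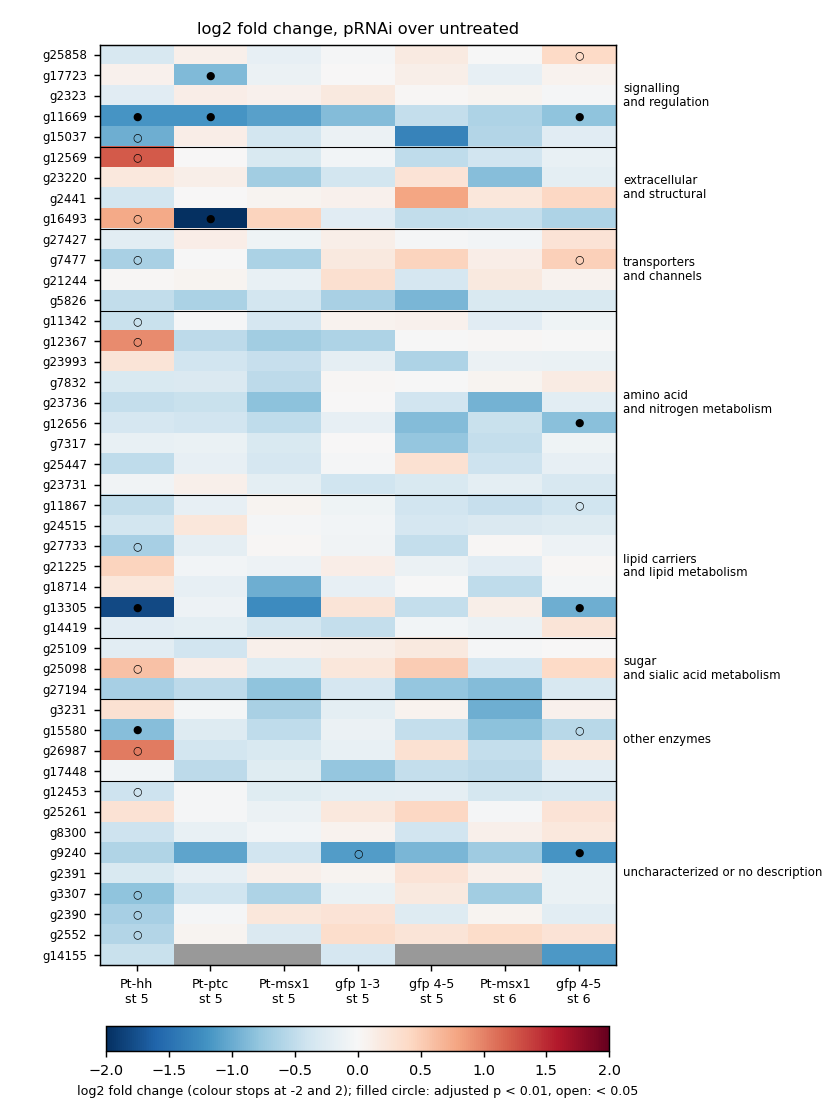
Log2 fold change of each member, pRNAi over untreated, in 7 comparisons (columns; st, stage), by role; grey marks a model that was not tested, a filled circle an adjusted p under 0.01 and an open circle one under 0.05. Pt-hh has 3 filled circles, Pt-ptc 3, both Pt-msx1 columns none, and aug3.g16493 after Pt-ptc pRNAi (-5.53) lies beyond the end of the colour scale.

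After Pt-ptc pRNAi, aimed at the brake of the pathway, 1 member was close to 0 reads and HES-1-A was lower. The count called was 3 of 44 tested, all lower, where 1.01% of 12195 models were called, and the median log2 fold change of the members was -0.16. As a difference from the response of gfp females 4 and 5, that median was -0.06, with 20 of 44 members above 0. The model aug3.g16493, a homeodomain protein in the study and sericin 1-like in its deposited description, on scaffold 2243 (215356 to 231239, plus strand), was at 0, 0, 0.131, 0.0809, 0.0932 and 0 CPM in the 6 Pt-ptc pRNAi libraries, against 3.99, 4.09 and 1.55 CPM in untreated embryos of females 1 to 3. Summed over libraries, 4 counts after pRNAi stood against 107 counts untreated, so that untreated embryos had 55.4 times the rate (exact 95% interval 21 to 207, counting error only). The fitted log2 fold change was -5.53 (SE 0.48, adjusted p 1.07e-05), a value that at so few counts also depends on the prior count of the fit.

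Over the alternatives run for this comparison its log2 fold change lay between -6.22 and -4.89. Set against the response of gfp females 4 and 5 it was -5.0 (SE 1.04, adjusted p 0.054), and in that comparison the quasi-likelihood test called 0 of 44 members, beside 0.239% of 12551 models, with 9 at an unadjusted p under 0.05, beside 7.96% of all models. Its level after Pt-ptc pRNAi at late stage 5 was as low as at early stage 3, where the 6 Pt-ptc pRNAi libraries had 0 to 0.145 CPM and the 3 untreated ones 0 to 0.122 CPM. After Pt-hh pRNAi it was instead at 37.7, 44.4, 34.5 and 27.9 CPM, against 18.7 and 24.6 CPM untreated (0.76, SE 0.19, adjusted p 0.0309). The untreated level of this gene differed between females, from 1.1 to 38.6 CPM over 13 of them, and the Pt-ptc females were among the low ones. It was also low in 1 gfp pRNAi library, at 0.775 CPM in gfp female 5 against 6.30 CPM untreated, whereas gfp female 4 had 9.45 CPM against 5.58 CPM.

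HES-1-A aug3.g17723, on scaffold 2641 (82306 to 93807, plus strand), fell to less than its untreated level in every Pt-ptc female. It was at 38.6 and 32.5 CPM in pRNAi libraries of female 1 against 71.6 CPM, at 46 and 48.8 CPM in female 2 against 83.6 CPM, and at 39.3 and 35.7 CPM in female 3 against 81.0 CPM. All 6 pRNAi libraries lay below all 3 untreated ones, with a log2 fold change of -0.89 (SE 0.10, adjusted p 0.000199), and against the response of gfp females 4 and 5 it was -1.01 (SE 0.19, adjusted p 0.0308). Without female 3 the adjusted p was 0.0128, at a log2 fold change of -0.82, and without the female as block it was 0.0136.

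No such fall was seen for HES-1-A in the other experiments. After Pt-hh pRNAi it was at 97.4, 82.2, 96.5 and 84.0 CPM against 82.9 and 91.5 CPM untreated, and over the 8 gfp pRNAi libraries of late stage 5 it ran from 64.4 to 100.5 CPM against 71.9 to 100.5 CPM untreated. The lowest of the 13 untreated late stage 5 libraries had 71.6 CPM, above all 6 Pt-ptc pRNAi libraries. With 32.5 to 48.8 CPM in these, the gene was lowered and not lost.

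**Figure D4:**
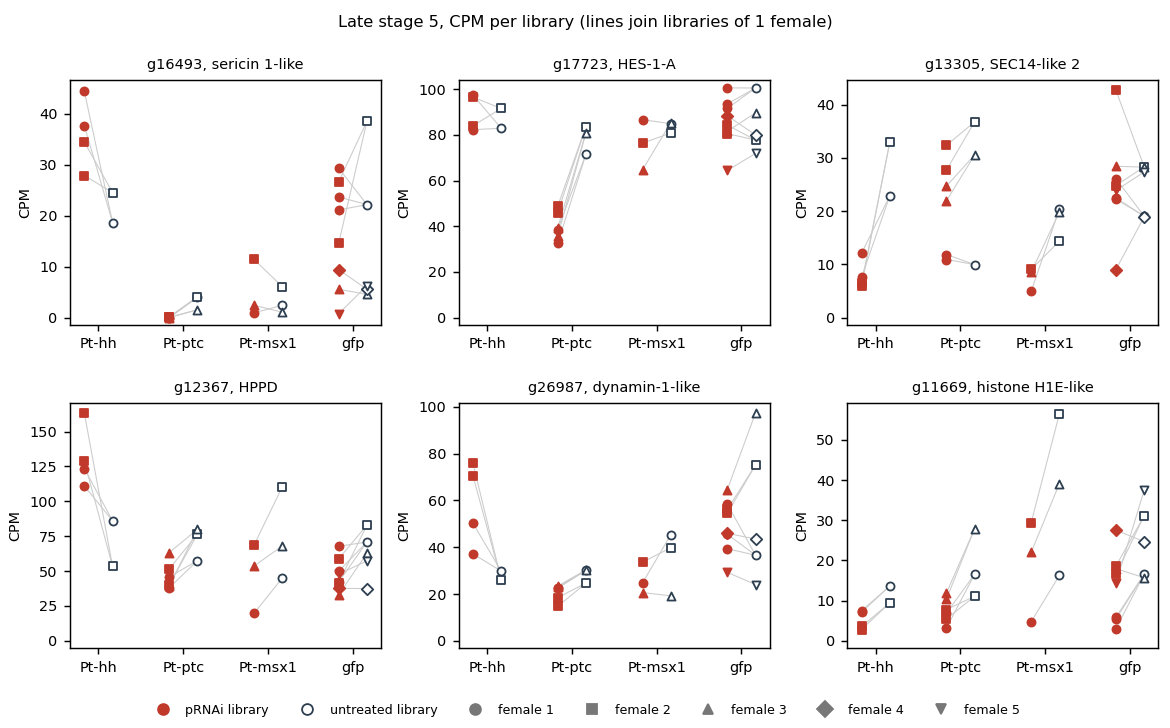
CPM at late stage 5 of 6 members in each library; in each experiment the pRNAi libraries (filled) stand left of the untreated ones (open), grey lines join libraries of the same female, and marker shapes give the female. aug3.g17723 is lowest after Pt-ptc pRNAi, aug3.g16493 is near 0 in all 6 Pt-ptc pRNAi libraries and at 0.775 CPM in 1 gfp pRNAi library, aug3.g13305 is low after Pt-hh pRNAi and after Pt-msx1 pRNAi, and aug3.g11669 is below its untreated level in most females of every experiment.

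In a fit of both experiments together, 5 of 45 members differed between the Pt-hh and the Pt-ptc response, beside 2.55% of 12879 models. Of these, 4 were higher in the Pt-hh response minus the Pt-ptc response: aug3.g16493 by 6.24 (SE 0.49, adjusted p 1.25e-07), HES-1-A by 0.97 (SE 0.16, adjusted p 0.000889), aug3.g26987 by 1.41 (SE 0.26, adjusted p 0.00278) and HPPD by 1.47 (SE 0.28, adjusted p 0.0037). SEC14-like aug3.g13305 was lower, by -1.69 (SE 0.26, adjusted p 0.000451). These values share no control libraries between both sides.

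The 5 genes reached this difference in unlike ways. For aug3.g16493, HPPD and dynamin-like aug3.g26987 the fold changes had opposite signs, +0.76, +0.94 and +1.04 after Pt-hh pRNAi and -5.53, -0.53 and -0.37 after Pt-ptc pRNAi. HES-1-A was called after Pt-ptc pRNAi and had 0.08 after Pt-hh pRNAi, and aug3.g13305 was called after Pt-hh pRNAi and had -0.10 after Pt-ptc pRNAi. Without Pt-ptc female 3 the number called was 3, beside 1.82% of all models. Over 10 alternatives the call was lost in 4 for HPPD, 4 for aug3.g26987, 3 for HES-1-A, 2 for aug3.g13305 and 0 for aug3.g16493. In gfp females 1 to 3, whose untreated libraries chose the members, HPPD was at 33 to 67.7 CPM after pRNAi against 62.8 to 82.9 CPM untreated.

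Pt-msx1 pRNAi called none of the 44 members tested, at either stage. The study itself listed changed genes from its Pt-msx1 libraries at an adjusted p under 0.01 and followed selected ones by in situ hybridization. Here the main fit called no model at all at either stage, so it cannot show that the members do not respond. At late stage 5, 0% of 12440 models were called by edgeR's quasi-likelihood test; 10 members had an unadjusted p under 0.05, beside 5.59% of all models, DESeq2 called 0 and edgeR's likelihood ratio test called 2, beside 0.113% and 0.273%. Their median log2 fold change was -0.30 beside 0.01 for all models, with 36 of 44 below 0. At early stage 6, again 0% of 12446 models were called, 12 members had an unadjusted p under 0.05, beside 6.23% of all models, and DESeq2 and the likelihood ratio test each called 1, beside 0.0321% and 0.129%. The median was -0.26, and without the shared count column it was -0.28, with 5 of 44 members above 0, 17 at an unadjusted p under 0.05 (9.41% of all models) and 0 called (0.0486%).

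The difference between the Pt-msx1 responses at early stage 6 and at late stage 5 called 0 members in all 3 tools (0% of 12798 models) and had 1 member at an unadjusted p under 0.05, or 0 without the shared column, beside 1.04% and 1.09% of all models. Set against the gfp response at late stage 5, the median Pt-msx1 response was -0.08. The gfp females 4 and 5 had a median of -0.15 of their own.

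In gfp pRNAi, which targets no spider gene, 0 of 44 members were called at late stage 5 in females 4 and 5, beside 0.231% of 12111 models; 9 had an unadjusted p under 0.05, beside 9.05% of all models, and DESeq2 and the likelihood ratio test called 0. At early stage 6, 4 of 45 were called, all lower, beside 1.71% of 11960 models. These were aug3.g9240, an uncharacterized model, at 31 and 31.9 CPM in gfp pRNAi libraries of females 4 and 5 against 60.5 and 89.97 CPM untreated; cystathionine beta-synthase aug3.g12656, at 31.3 and 46.2 CPM against 58.6 and 85.2 CPM; SEC14-like aug3.g13305, at 10.6 and 27.6 CPM against 26.5 and 47.8 CPM; and aug3.g11669, at 29.5 and 21.4 CPM against 36 and 58 CPM. The second pRNAi value of each is that of the shared column, and without it only female 4 remains, which leaves a value and no test. The median log2 fold change of the members was -0.13 with that column and -0.06 without it.

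For gfp females 1 to 3 the untreated libraries are those that chose the members, so their comparisons are a description. At late stage 5, 0 of 45 were called (0.137% of 12433 models), with 11 at an unadjusted p under 0.05 (11.7%); DESeq2 called 2 (0.668%) and the likelihood ratio test 3 (1.05%). The median was -0.06. The uncharacterized aug3.g9240 was at 5.80 to 14.9 CPM in these 6 pRNAi libraries against 9.53 to 27.1 CPM untreated, at 9.25 and 10.9 CPM in gfp females 4 and 5 against 20.1 and 21.6 CPM, and at 7.23 to 23.5 CPM after Pt-ptc pRNAi against 19.2 to 38.6 CPM. After Pt-hh pRNAi it was at 10.9 and 15.2 CPM in female 1 against 33 CPM, and at 25.3 and 24.0 CPM in female 2 against 22.7 CPM.

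At early stage 3 the members were close to the limit of reading, and only those with at least 1 CPM in some library could be tested. After Pt-hh pRNAi 0 of 18 tested members were called, where 0.34% of 13221 models were, with 1 at an unadjusted p under 0.05 (15.1% of all models) and 0 by DESeq2 and the likelihood ratio test. After Pt-ptc pRNAi it was 0 of 22, where 0.134% of 13384 models were called, with 6 at an unadjusted p under 0.05 (15.7% of all models), 0 by DESeq2 (1.06%) and 1 by the likelihood ratio test (1.65%). Early onset of the members after either treatment was not detectable at this depth.

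In gfp females 1 to 3, however, the sum over the members was 28.9 to 60.9 CPM in the 6 pRNAi libraries of early stage 3 against 20.4 to 23.2 CPM in the 3 untreated ones. The rule required those untreated libraries to be low, so nothing is read from this. TGFBI-like aug3.g12569 was at 1.93 to 6.90 CPM after gfp pRNAi against 0.811 to 1.02 CPM untreated. It was the 1 of 32 members tested that lay past the threshold, where 1.26% of all models did, and this too is a description only. It was also at 9.41 CPM in the untreated stage 3 library of Pt-hh female 1. In the Pt-hh females the sum was 14.6 to 30.5 CPM in pRNAi libraries against 19.8 and 29.4 CPM in untreated ones, and in the Pt-ptc females 25.6 to 45.2 CPM against 27.4 to 37.5 CPM.

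**Figure D5:**
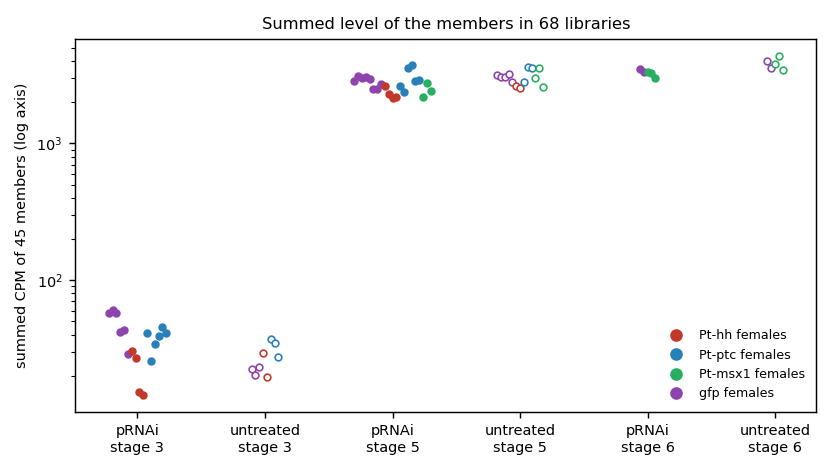
Summed CPM of the 45 members in each of the 68 libraries on a log axis, ordered by the 3 stages, with pRNAi libraries (filled) left of untreated ones (open) and colours for the experiment. All libraries lie between 14.6 and 60.9 CPM at early stage 3 and at 2139 CPM or more at both later stages, in every experiment.

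From late stage 5 to early stage 6 the germ disc turns into a germ band. In untreated Pt-msx1 females 1 to 3 and gfp females 4 and 5, 11 of 45 members were called higher at early stage 6 than at late stage 5 and 0 lower, beside 1.45% of 12689 models called higher. The median log2 fold change was 0.36, with 32 of 45 above 0. The summed level was 3418.5 to 4317 CPM at early stage 6 against 2571 to 3561.5 CPM at late stage 5 in the same females. These libraries did not enter the rule.

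The largest rise was that of aug3.g16493, whose 2 descriptions differ as given above, at 19, 36.6, 18.1, 25.5 and 26.4 CPM at early stage 6 against 2.41, 6.13, 1.1, 5.58 and 6.30 CPM at late stage 5 (log2 fold change 2.58, SE 0.21, adjusted p 5.73e-05, higher in 5 of 5 females). Uncharacterized aug3.g9240, on scaffold 1003 (1 to 24694, plus strand), was at 60.5 to 142 CPM against 20.1 to 65.1 CPM (1.62, SE 0.15, adjusted p 0.000102). Of the 9 amino acid and nitrogen enzymes 4 were called: aug3.g7832, the decarboxylase on the way to taurine (1.15, SE 0.11), the histidine ammonia-lyase-like aug3.g23736 (0.99, SE 0.10), cystathionine beta-synthase aug3.g12656 (0.67, SE 0.10) and a hydroxylysine kinase. HES-1-A was at 81.1 to 89.2 CPM against 71.9 to 85.3 CPM. Leaving out 1 female at a time gave 5 to 23 calls, in both directions together: 23 without Pt-msx1 female 1 (4.64% of all models), 6 without Pt-msx1 female 2 (1.13%), 5 without Pt-msx1 female 3 (0.878%) and 6 without gfp female 4 (0.811%), where the full fit called 2.25% in both directions.

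The 28 other genes that the study names with an identifier, among them Hh pathway components, germ disc genes and genes of the later germ band, are set beside the members here. None of them met both limits of the rule: 2 lay below 1 CPM at early stage 3 and 19 at or above 20 CPM at late stage 5. Between late stage 5 and early stage 3, 20 of 26 tested were called higher and 1 lower, with a median log2 fold change of 2.09. After Pt-hh pRNAi 14 of 26 were called (4 higher, 10 lower), and after Pt-ptc pRNAi 19 of 26 (5 higher, 14 lower); some of these genes were picked by the study from these libraries for their responses, so the counts are no independent measure. Pt-otd, at 115 ± 20.7 CPM at late stage 5 against 4.47 ± 4.60 CPM at early stage 3 in untreated Pt-hh and Pt-ptc females (SD, n = 5 each), and Pt-gas1, at 81.8 ± 18.1 CPM against 5.26 ± 4.34 CPM, were both higher at the later stage. So were the means of Pt-msx1 (156 against 18.8 CPM), Pt-hh (53.3 against 20.1 CPM) and Pt-Delta (271 against 33.1 CPM). Pt-lab-A, at 148 ± 11.3 CPM against 152 ± 60.5 CPM, and Pt-opa, at 225 ± 21.4 CPM against 256 ± 82.8 CPM, did not rise.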

How the data were processed

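Reads of each library had been trimmed (CLC Genomics Workbench) and placed on Ptep_1.0 by BLAT before deposit; the authors then kept alignments that were unique and passed a quality filter, and obtained counts on aug3 models, using strand, from htseq-count 0.5.4p5. Reads that fit more than one place were thereby lost, which lowers counts of close copies. The deposited counts are whole numbers per gene model without normalization. The deposited RPKM values were used only for levels per length and for the identical column. Deposited tables of the authors' comparisons were not used. Of 75 samples listed, 68 have a count column; 7 samples of stage 7 were not analysed here.

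CPM is the count over the column total. Tests used R 4.3.3 and edgeR 4.0.16: models reaching 1 CPM in any library of the fit, TMM, the quasi-likelihood F test, the female as block and Benjamini-Hochberg adjustment over all models tested, with a threshold of 0.01. Standard errors were taken from the F statistic. The pairing comes from the labels, where a number names the mother: deviations of her untreated and pRNAi libraries at late stage 5 correlated at 0.567 to 0.778 across gene models in 13 females. The fitting functions were also run on simulated counts with known changes, and no result given here rests on that run. Alternatives were DESeq2 1.42.0, the likelihood ratio test, RLE size factors, no filter, no block, a threshold of 0.05, egg sac windows, summed libraries, differences from the gfp response (that of females 4 and 5 for Pt-hh and Pt-ptc, added after the data were seen) and each female left out.

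The members, the role groups and the lists were chosen with earlier results of these data known. Genes named with values are the 10 members with most reads, those called in the same direction in every female (up to 6 each way for each comparison), those the study names and those at the limits; others, such as aug3.g14155, aug3.g15037 and aug3.g27194, were picked once their values had been seen. The RefSeq gene table of another assembly held 39 of the 41 member loci and no coordinate was taken from it. Replicates are different females, and libraries of one female share their mother.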

Additional observations from a re-analysis of the deposited data

Results flagged for a closer look

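At late stage 5, 5 members gave different responses to Pt-hh and to Pt-ptc pRNAi by the test of the difference itself. The Pt-hh response minus the Pt-ptc response was 6.24 for aug3.g16493, 1.47 for HPPD aug3.g12367, 1.41 for dynamin-like aug3.g26987, 0.97 for HES-1-A aug3.g17723 and -1.69 for SEC14-like aug3.g13305, all as log2 fold changes.

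One library lay apart from the others of its group. BTB domain-like aug3.g25858 was at 226 CPM in the day 16 egg sac of Pt-hh female 1 after pRNAi, against 149 to 159 CPM in the other 3 Pt-hh pRNAi libraries of late stage 5. Of 88 groups of values looked at in this way 1 stood out, and how many chance alone would give was not tested.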

How the results depend on the processing

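The switch itself did not depend on the processing: 43 members were called higher at late stage 5 with each of the 5 females left out in turn. In those fits 49.6% to 54.5% of all models were called, in both directions together. The pRNAi counts did. After Pt-hh pRNAi at late stage 5, 3 members were called, beside 3.55% of all models, against 6 with DESeq2 (3.94%), 14 with the likelihood ratio test (6.4%), 16 without the low-count filter (4.79%) or with a threshold of 0.05 (6.54%), 6 from the first window of egg sacs (3.44%), 1 from the second (1.43%), 6 when any of the 3 fits counted (4.12%), 0 with the libraries of a female summed (1.01%) and 0 as a difference from the response of gfp females 4 and 5 (0.544%); leaving out 1 female gave 3 to 12. After Pt-ptc pRNAi, 3 were called (1.01%), against 7 without the filter (2.29%) and 1 from the first window (0.348%). It was 0 as a difference from the response of gfp females 4 and 5 (0.239%), and 1 to 3 with a female left out (0.448% to 0.855%). For Pt-msx1 at late stage 5 the count of 0 became 2 with the likelihood ratio test (0.273%) and 4 without the filter (0.595%). It was 0 to 2 with a female left out (0% to 0.352%). At early stage 6 the count of 0 became 1 with DESeq2 (0.0321%) and 1 with the likelihood ratio test (0.129%). For gfp females 1 to 3 at late stage 5, 0 (0.137%) became 2 with DESeq2 (0.668%), 3 with the likelihood ratio test (1.05%), 5 without the filter (1.32%) and 1 at 0.05 (0.756%). At early stage 3 in these females, 1 (1.26%) became 5 with the likelihood ratio test (4.99%), 2 without the filter (2.41%) and 5 at 0.05 (6.3%). It became 0 with any female left out (0.21% to 0.624%). The 4 of gfp females 4 and 5 at early stage 6 (1.71%) became 2 with DESeq2 (0.36%), 8 with RLE size factors (2.26%) and 8 at 0.05 (3.13%). At early stage 3 after Pt-ptc pRNAi, 0 (0.134%) became 1 with the likelihood ratio test (1.65%), 3 without the filter (1.79%) and 1 at 0.05 (1.01%). Between early stage 6 and late stage 5, 11 (2.25%) became 18 with the likelihood ratio test (5.45%), 19 without the filter (4.08%) and 20 at 0.05 (5.77%). It was 5 to 23 with a female left out (0.811% to 4.64%). The 5 differences between the Pt-hh and Pt-ptc responses (2.55%) became 3 to 4 with a Pt-ptc female left out (1.82% to 1.91%). With a Pt-hh female left out only 1 untreated Pt-hh library remains, so no count is given. Over the 10 alternatives, which include those fits, the log2 difference ran from 0.92 to 2.09 for HPPD and from 0.88 to 1.97 for aug3.g26987. It ran from 0.89 to 1.07 for HES-1-A, from -2.18 to -1.16 for aug3.g13305 and from 5.61 to 6.90 for aug3.g16493. The cause of these shifts was not tested.

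Without the female as a block, the pairing of libraries from one mother is lost. At late stage 5 the Pt-hh comparison then called 0 members (0.319% of all models) and the Pt-ptc comparison 1 (0.32%). The difference between the Pt-hh and Pt-ptc responses called 1 (0.885%). For gfp, 0 were called at early stage 6 (0%) and 0 at early stage 3 (0%). Between early stage 6 and late stage 5 it was 0 (0.0158%). In each of these comparisons the share over all models was also lower than with the block, so the drop was not particular to the members.

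The choice of limits set the size of the list: 81 models with a stage 3 limit of 2 CPM, 23 with 0.5 CPM, 23 with a stage 5 limit of 40 CPM and 93 with 10 CPM, against 45. Fits without the shared count column and differences from the response of gfp females 4 and 5 were added after the data were seen; in that difference the Pt-hh value of aug3.g15037 turned to 0.44. The difference between the Pt-msx1 and gfp responses at early stage 6 was not run, since both experiments hold that column. Members at a few counts, most of all at early stage 3, are limited by depth. No direction of a member called at 0.01 turned under the alternatives run.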
